A study of Mus musculus with 12 samples.

Results

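Bone marrow haematopoietic stem cells (HSC) were described cell by cell from 5 plates of a single-cell RNA series. All wells of the 5 plates titled as bone marrow HSC were taken. To count as a cell, a well needed 1000 genes or more, 3000 or more unique molecular identifiers (UMIs, tags meant to let copies of 1 molecule be counted once) and a mitochondrial share of UMIs below 20%. This left 423 cells of 480 wells, with 95, 96, 71, 81 and 80 on plates 1 to 5, and they are part of 1020 cells in the series. The other cells were 454 from fetal liver and 143 from the aorta-gonad-mesonephros region (AGM), where the first HSC arise in the embryo. All 57 wells left out had under 3000 UMIs. The highest of them held 2513 UMIs, the lowest kept cell held 4619, the fewest genes in a kept cell were 1031 and the highest mitochondrial share was 3.69%.

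Bone marrow plates 1 to 3 carry 1 origin code in their titles and plates 4 and 5 another, here called the first and the second origin. For plates 4 and 5 the tissue stands in the title only. The fetal liver group has 5 plates with 2 codes (plates 1 to 3, and plates 4 and 5), and the AGM group has 2 plates with 1 code. For none of the 3 groups do the labels give a genotype, strain, treatment, age, sex or the surface markers of the sort, and the meaning of a code, single animal or pooled animals, is not given. The series' design names DARLIN and CARLIN mice, lines made for lineage barcoding, without saying which line gave these plates. P-values over plates therefore measure the spread between plates, which may be technical. Cells were sorted 1 to a well, nuclei were taken away on magnetic beads, and libraries were made from the polyadenylated RNA of the cytoplasm. The nuclear RNA Malat1 was nevertheless found in 100% of the bone marrow cells.

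HSC renew themselves and give rise to all blood lineages. In adult bone marrow most of them rest outside the cell cycle, whereas in the fetal liver they divide and grow in number. Their identity rests on transcription factors such as Meis1, Hlf and Mecom and on receptors such as Kit, the receptor of stem cell factor.

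The 423 cells held 30786386 UMIs, with 2596681 to 9896449 on a plate and a median of 59558 UMIs and 2631 genes in a cell. Fetal liver cells had medians of 54303 UMIs and 4117 genes, and AGM cells 159228 and 5513. To compare cells of unequal depth, each was also thinned at random to 20000 UMIs, which 392 bone marrow cells allowed (92, 94, 71, 66 and 69 by plate) and 31 did not. All 12 plates use the same 96 well barcodes, so barcodes were kept apart by plate, and no pair of plates held identical values.

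The 6 genes given as markers of these cells were present in most of them, except Alcam. They were chosen with values of these data known, so they are described here without a test, in UMIs of the gene per 1000000 UMIs of the plate (CPM). Myl10, a myosin light chain gene, stood at 876, 1022, 966.5, 235 and 201 CPM on plates 1 to 5. The second origin thus lay below every plate of the first, and fetal liver averaged 28.7 CPM and AGM 0. H2-Q7, a non-classical MHC class I gene, had 512, 613, 571, 434 and 279.9 CPM, against means of 7.04 in fetal liver and 0 in AGM. Its transcript aligned to that of its relative H2-Q10 over 1500 bases at 94.9% identity, so reads of such copies may be split or lost. Sdsl, a serine dehydratase-like gene, had 259.6, 217, 213, 97.8 and 125 CPM, and fetal liver averaged 0.702.

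Cd74, the invariant chain that guides MHC class II molecules, had 115, 96.0, 167, 192 and 165 CPM, with no order between the origins that every plate followed, and fetal liver averaged 21.9. Ly6a, which encodes the Sca-1 antigen used to sort adult HSC, had 485, 467, 334, 323.5 and 384.5 CPM, with means of 188 in fetal liver and 60.9 in AGM. Alcam, an adhesion molecule, had 1.01, 42.0, 20.2, 20.8 and 43.8 CPM. Plate 1 held almost none of it while the other 4 plates did, and 1 cell supplied 12.2% of its UMIs over all plates. On GRCm38, Myl10 lies at chr5:136693146-136701094 (plus strand), H2-Q7 in the MHC at chr17:35439155-35443773 (plus), Sdsl at chr5:120458186-120472810 (minus), Ly6a at chr15:74994877-74998031 (minus) and Alcam at chr16:52248996-52454074 (minus).

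**Figure D1:**
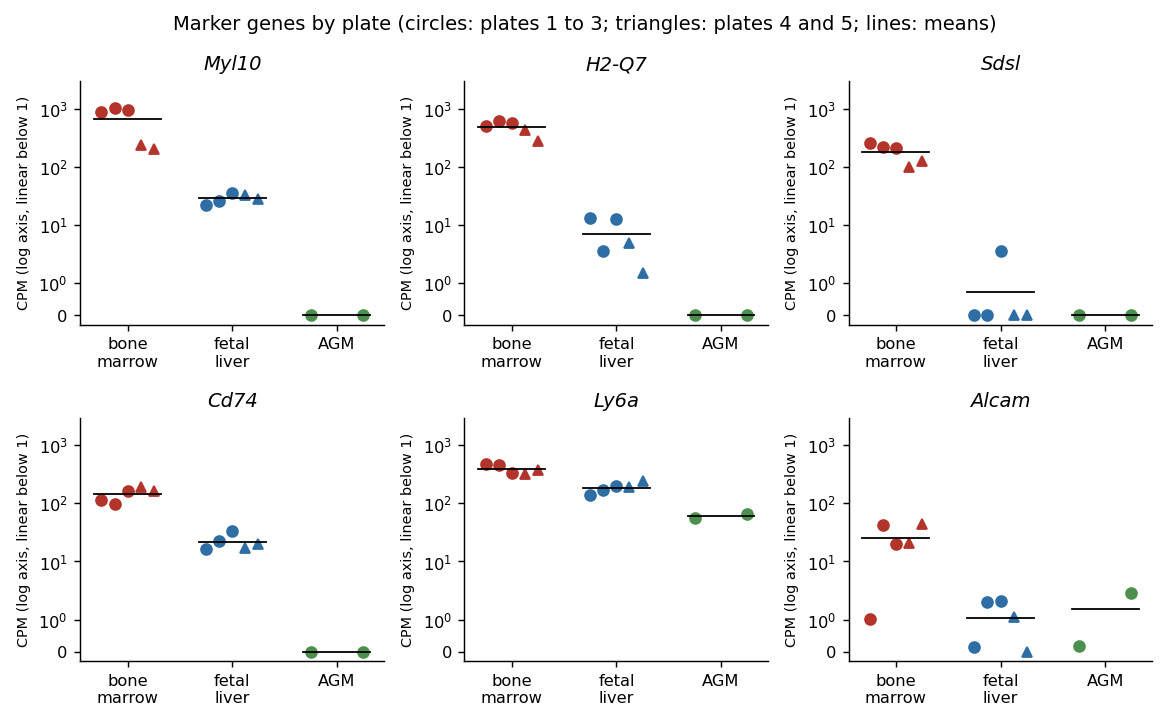
CPM of 6 marker genes on each plate of bone marrow, fetal liver and AGM (log axis, linear below 1), circles for plates 1 to 3, triangles for plates 4 and 5 and lines for means. Myl10 separates the plates with circles (876 to 1022 CPM) from those with triangles (201 and 235 CPM) within bone marrow.

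Cell by cell, the markers fell into cells with none, a few and many UMIs. Myl10 was found in 358 of 423 cells, a share of 84.6% (exact 95% binomial interval 80.8 to 87.9%, counting error only), and 61.5% had at least 10 UMIs of it. H2-Q7 was found in 93.1% of cells and reached 10 UMIs in 59.1%. Ly6a was found in 86.8% and reached 10 UMIs in 48.9%, Sdsl in 63.1% and 30.3%, and Cd74 in 58.4% and 19.4%. Alcam was found in 16.5% and reached 10 UMIs in 4.26%. As a background, the 57 wells left out, with a median of 330 UMIs, had a UMI of Myl10 in 6 wells, H2-Q7 in 13, Ly6a in 11, Cd74 in 9, Alcam in 1 and Sdsl in 0. In AGM, Myl10, H2-Q7, Sdsl and Cd74 had a UMI in 0 of 143 deeper cells, which allows a share of cells with a UMI of up to 2.10% (3 counts of 143).

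At 20000 UMIs a cell the shares kept the contrast between origins for Myl10 and turned up another for Cd74. Myl10 was found in 87.0, 93.6 and 97.2% of cells on plates 1 to 3 and in 48.5 and 55.1% on plates 4 and 5. Cd74 was found in 25, 25.5, 38.0, 48.5 and 66.7% of cells, so the second origin had more cells with it, although its CPM overlapped between the origins. Procr, the endothelial protein C receptor that marks HSC, went the same way with 20.6, 30.9, 21.1, 56.1 and 53.6% of cells, and fetal liver averaged 83.4%. Itga2b, the integrin CD41 of platelets and of some HSC, was found in 8.70, 14.9, 16.9, 31.8 and 7.25% of cells, and fetal liver averaged 3.08%.

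**Figure D2:**
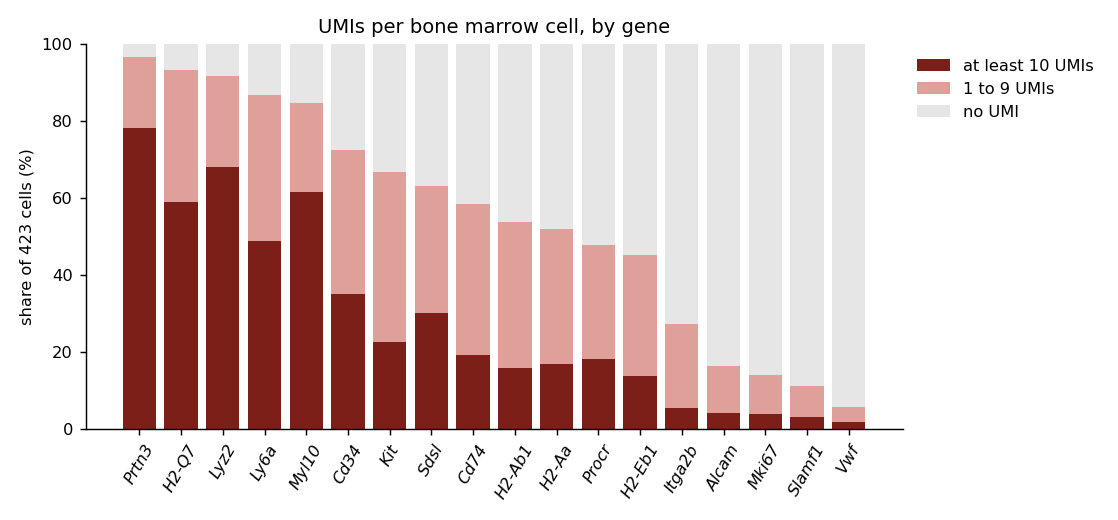
Share of the 423 bone marrow cells with no UMI, 1 to 9 UMIs and at least 10 UMIs of 18 genes (stacked bars, unthinned counts). Prtn3 and Lyz2 reached 10 UMIs in 78.3 and 68.1% of cells, more often than any of the 6 markers, and Mki67 in 4.02%.

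The label was checked against defining markers. Of 12 stem cell markers all were found, and a cell held a median of 6 of them. Hlf was found in 67.1% of cells, Kit in 66.7%, Meis1 in 61.9%, Mecom in 53.0%, Mllt3 in 49.6%, Esam in 48.7% and Procr in 47.8%. Hoxa9 was found in 35.2%. Slamf1, which encodes the CD150 antigen widely used to sort adult HSC, was found in 11.3% of cells, and Fgd5 in 4.49%. The summed level of the list ran from 1524 to 1840 CPM on bone marrow plates, within the range of fetal liver plates (1433 to 1809 CPM) but for its upper end. Ly6a, the member of the list with the most UMIs, is also a given marker, chosen with values of these data known. The sum and the median of markers per cell are therefore no independent result.

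Many defining genes of mature lineages had no UMI. Cd79a and Ms4a1 of B cells, Cd3d of T cells, Elane and Ly6g of granulocytes, Cma1 and Tpsb2 of mast cells, Cdh5 and Plvap of endothelium, Cxcl12 and Pdgfra of stroma and C1qa and Marco of macrophages had no UMI in 423 cells, which allows a share of cells with a UMI of up to 0.709% each (3 counts of 423) and does not limit the share of cells that express the gene. Other markers of the same lists were found. Emcn, endomucin, of the endothelial list was found in 32.6% of cells and reached 10 UMIs in 13.7%, while Kdr was found in 1.18%. C1qb and Adgre1 of the macrophage list were found in 2.60 and 1.89%, Col1a1 of stroma in 1.89% and Cd3g and Cd4 of T cells in 1.42% each. Some myeloid and megakaryocytic genes were frequent all the same. Lyz2, lysozyme, was found in 91.7% of cells and Prtn3, proteinase 3, in 96.7%, while Mpo, myeloperoxidase, was found in 12.3%. Pf4 and Gp9, both genes of megakaryocytes and platelets, were found in 36.2 and 36.9% of cells, Tubb1 in 0.236% and Ppbp in 1.89%. The summed megakaryocyte list ran from 149 to 246 CPM on bone marrow plates and from 112 to 208 on fetal liver plates. S100a8, a granulocyte alarmin, was found in 18.7% of cells and the globin gene Hbb-bs in 16.8%. The wells left out had a UMI of Prtn3 in 29.8%, of Lyz2 in 19.3% and of Pf4 in 10.5%.

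In abundance the cells were led by the translation machinery. Without mitochondrial and Rpl or Rps genes, the most abundant genes by UMIs (tags, not divided by transcript length) were Gm42418, Eef1a1, B2m, Gm10076, Malat1, Actb, Fau, Gas5, Hsp90ab1, Ifitm1, Fth1 and Tpt1, with means over plates of 4608 ± 522.5 CPM (SD, n = 5 plates) for Gm42418 to 2244 ± 359.9 for Tpt1. All but Hsp90ab1, at 99.8%, were found in every cell. Eef1a1 encodes the elongation factor that brings transfer RNA to the ribosome, B2m the light chain of MHC class I, and Ifitm1 an interferon-inducible membrane protein. Rps29, Rpl13 and Rps27 led the ribosomal protein genes with 5848 ± 1636, 4970 ± 1105 and 4853 ± 1245 CPM. Ribosomal protein genes made up 20.8, 23.4 and 21.3% of UMIs on plates 1 to 3 and 33.5 and 28.7% on plates 4 and 5, so the origins did not overlap. The mitochondrial genes mt-Cytb, mt-Nd1 and mt-Nd5 averaged 533 ± 186, 327 ± 166 and 311 ± 157 CPM and were lower on both plates of the second origin.

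A small core of genes was seen in nearly every cell and a long tail in few. Over the 423 cells 18139 genes had a UMI, of which 3166 were seen in exactly 1 cell. In every bone marrow plate 94 genes were found in at least 99% of cells and 233 in at least 90%. After thinning 170 genes passed 90% of cells in every plate, against 381 in fetal liver, and 164 of the 170 were also among the fetal liver genes. At the level of 50% of cells 651 genes passed in every bone marrow plate and 1401 in every fetal liver plate. The median number of genes per thinned cell averaged 1915 ± 158 (SD, n = 5 plates) in bone marrow and 3103 ± 314 in fetal liver. This difference had an exact two-sided permutation p of 0.00794 over 5 against 5 plates, the smallest the design allows, and 0.0132 after Benjamini-Hochberg adjustment over 5 plate summaries.

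A detected gene had a median of 25, 4.5, 3, 4 and 4 UMIs in a cell on bone marrow plates 1 to 5 and of 2 to 8 on fetal liver plates, and its part in the gene counts was not tested. Entries of at least 10 UMIs made up 57.8% of detected entries on bone marrow plate 1 and 31.7% on plate 4. The sources used here do not say whether UMIs were collapsed alike on all plates. UMI counts, CPM, shares of thinned cells and shares of cells with at least 10 UMIs may not mean the same on each plate. The stem cell factors detected most often were Lmo2 (97.2% of cells), Lyl1 (89.1%), Nfe2 (84.6%) and Myct1 (75.7%), the first 3 of them known regulators of blood cell genes. Among surface genes Cd63 (91.2%), Cd81 (90.1%) and Ly6a were found most often. The glycolytic enzyme gene Gapdh was found in 98.6% of cells and Gpx1, which encodes an enzyme that breaks down peroxides, in 100%. Ccnd2 and Cdk4, the cyclin and kinase of the G1 phase, were found in 97.2 and 91.0%, and Txnip, an inhibitor of thioredoxin, in 92.2%.

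MHC genes were expressed in these cells in 2 different patterns. Class I molecules, a heavy chain with B2m, show peptides from inside the cell, and class II molecules, pairs of an alpha and a beta chain escorted by Cd74 and edited by H2-DM, are best known from professional antigen-presenting cells. Of 24 genes of class I presentation 14 were found in at least 50% of cells of every bone marrow plate. H2-K1 was found in 100% of cells at 1498, 1647, 1497, 1725 and 1796 CPM, and H2-D1 in 99.8% at 1106, 1142, 1031, 1321 and 1342 CPM. Their SD over plates was 134 and 137 CPM, and both were highest on plates 4 and 5. Psmb8, a subunit of the immunoproteasome, was found in 96.5%.

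Class II genes were found in part of the cells. H2-Aa, H2-Ab1 and H2-Eb1, the alpha and beta chains, were found in 52.0, 53.9 and 45.2% of the 423 cells and reached 10 UMIs in 17.0, 15.8 and 13.7%. H2-Aa had 82.2, 144, 129, 113 and 123 CPM on plates 1 to 5 and H2-Ab1 had 76.0, 168, 149, 115 and 99.4, so every plate held them. Of the set of these 3 genes and Cd74, 72 cells (17.0%) had all 4 genes, 91 had 3, 113 had 2, 99 had 1 and 48 (11.3%) had none. With at least 10 UMIs asked of each gene, 14 cells (3.31%) had all 4 and 272 (64.3%) had none. In fetal liver 0 of 454 cells had 3 or more of the 4 genes with a UMI and 319 (70.3%) had none. H2-DMa, a subunit of the editor, was found in 77.3% of bone marrow cells at a mean of 283.5 ± 81.7 CPM.

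Class II genes are known to share promoter elements, among them the Y box with the letters CCAAT. The windows from 250 bases before to 50 bases after the start of H2-Aa (chr17:34287774-34288073, minus strand) and H2-Eb1 (chr17:34305617-34305916, plus strand) are shown because both genes were found in part of the cells. They are from RefSeq on GRCm38.p6, written 5′ to 3′, with CCAAT or its reverse ATTGG in capitals.
H2-Aa: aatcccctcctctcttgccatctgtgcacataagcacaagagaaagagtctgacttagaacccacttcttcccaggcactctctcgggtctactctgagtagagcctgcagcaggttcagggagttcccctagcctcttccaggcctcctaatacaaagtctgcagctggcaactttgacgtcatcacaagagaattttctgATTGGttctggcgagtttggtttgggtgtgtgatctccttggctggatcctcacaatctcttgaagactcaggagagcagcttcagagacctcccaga
H2-Eb1: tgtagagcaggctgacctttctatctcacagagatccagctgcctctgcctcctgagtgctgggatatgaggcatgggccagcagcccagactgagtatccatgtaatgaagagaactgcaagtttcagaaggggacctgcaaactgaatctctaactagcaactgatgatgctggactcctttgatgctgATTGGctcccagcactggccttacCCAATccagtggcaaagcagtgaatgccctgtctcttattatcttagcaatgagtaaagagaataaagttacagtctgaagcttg
H2-Aa had 1 match, at -48 from the start, and H2-Eb1 had 2, at -59 and -35, and these did not overlap. Searched on both strands, the letters occurred in 37.4% of 32851 promoter windows of this length, so a match is common and describes the letters only. H2-Ab1 had no window in the table used.

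A bone marrow cell held fewer cell cycle genes than a fetal liver cell. Of 41 genes of S phase, when DNA is copied, a thinned bone marrow cell held a median of 5, 6, 8, 7 and 7 on plates 1 to 5, and a fetal liver cell 16, 16, 17, 12 and 21. The plates of the tissues did not overlap in this median, which was not tested, and bone marrow cells also held fewer genes in all (above). Cells differed widely within a plate. The lowest cell held 0 to 2 S-phase genes and the highest 27 to 32. Pcna, the clamp that holds DNA polymerase on the template, was found in 63.1% of unthinned cells and Mcm6, a subunit of the replicative helicase, in 59.8%. Rfc2, a subunit of the clamp loader, was found in 79.2%. Mki67, the proliferation antigen Ki-67, was found in 14.2% of cells and reached 10 UMIs in 4.02%. At 20000 UMIs it was found in 4.35, 10.6, 5.63, 7.58 and 10.1% of cells by plate, below every fetal liver plate (15.4 to 30.7%).

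In summed counts some of these genes were lower than in fetal liver and none was called higher. UMIs were summed per origin code and tested with edgeR's quasi-likelihood test and Benjamini-Hochberg adjustment, which called 732 of 15472 genes (4.73%), 414 higher (2.68%) and 318 lower (2.06%) in bone marrow. Of 41 S-phase genes 0 were higher and 4 lower (Tyms, Nasp, Gmnn and Exo1), with a median log2 difference of -0.36 beside 0.00 over all genes tested. Of 52 genes of G2 and M phase, when chromosomes are condensed and divided, 0 were higher and 16 lower, with a median of -0.76. Cks1b, a partner of cyclin-dependent kinases, had 159 and 243 CPM in the bone marrow origins and 455 and 403 in the fetal liver origins. Its log2 difference was -1.10 ± 0.22 (adjusted p = 0.00496), where the ± of a fitted difference, here and below, is its standard error. These calls rest on 2 origins a tissue. Without fetal liver plate 4 the counts of lower genes fell to 0 for S phase and 1 for G2 and M phase, while the medians were -0.60 and -0.75.

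S-phase genes had weak positive correlations between cells. Over 21 S-phase genes found in at least 10% of thinned cells of every bone marrow plate, the median of 210 pairwise Spearman correlations was 0.22, weak in size, beside 0.02 over all 6932226 pairs of such genes and 0.24 for the same genes in fetal liver. Given the number of genes detected in each cell it was 0.13. Mcm2 and Pcna had correlations of 0.31, 0.41, 0.45, 0.33 and 0.52 on plates 1 to 5, the only S-phase pair with at least 0.3 on every plate. Mcm2 and Mcm5 had 0.46, 0.25, 0.43, 0.31 and 0.55. The correlations come from cells that share plate, library and depth, and no test was made. The plate medians of S-phase pairs averaged 0.21 ± 0.02 (SD, n = 5) in bone marrow and 0.25 ± 0.04 in fetal liver (exact permutation p = 0.127, adjusted 0.159). Without fetal liver plate 5 the exact permutation p of this difference was 0.0317, unadjusted.

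Genes of DNA replication are known targets of E2F factors. The promoter windows of Mcm5 (chr8:75109259-75109558, plus strand), Mcm6 (chr1:128359656-128359955, minus strand) and Pcna (chr2:132253131-132253430, minus strand) are shown because these genes had some of the higher S-phase correlations. They are from RefSeq on GRCm38.p6, 5′ to 3′, with matches to the E2F letters TTTCGCGC, TTTGGCGC or TTCCCGCC on either strand in capitals.
Mcm5: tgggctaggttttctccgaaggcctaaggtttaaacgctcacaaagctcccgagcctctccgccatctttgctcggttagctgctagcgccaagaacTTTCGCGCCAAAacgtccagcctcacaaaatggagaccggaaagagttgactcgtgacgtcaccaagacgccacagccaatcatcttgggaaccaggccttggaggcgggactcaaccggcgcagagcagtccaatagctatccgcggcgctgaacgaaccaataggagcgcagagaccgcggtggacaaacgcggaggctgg
Mcm6: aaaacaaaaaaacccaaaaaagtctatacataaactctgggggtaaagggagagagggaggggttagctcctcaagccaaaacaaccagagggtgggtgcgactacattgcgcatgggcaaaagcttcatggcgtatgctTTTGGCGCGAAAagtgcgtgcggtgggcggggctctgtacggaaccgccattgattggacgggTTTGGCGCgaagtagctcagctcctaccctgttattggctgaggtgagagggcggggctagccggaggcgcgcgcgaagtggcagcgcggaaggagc
Pcna: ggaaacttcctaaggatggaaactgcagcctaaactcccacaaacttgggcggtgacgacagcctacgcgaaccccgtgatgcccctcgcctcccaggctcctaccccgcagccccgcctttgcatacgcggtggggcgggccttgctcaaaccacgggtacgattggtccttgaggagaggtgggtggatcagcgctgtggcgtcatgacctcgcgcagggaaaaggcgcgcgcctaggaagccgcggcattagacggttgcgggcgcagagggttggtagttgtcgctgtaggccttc
Mcm5 had 2 matches that overlap, at -153 and -149. Mcm6 had 3, of which those at -110 and -106 overlap and the third stands at -47. Pcna and Mcm2 had 0, and Mcm7, which has more than 1 start in the table, had 1 at 16 after 1 of its starts. The letters occurred in 2.96% of 32851 windows.

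**Figure D3:**
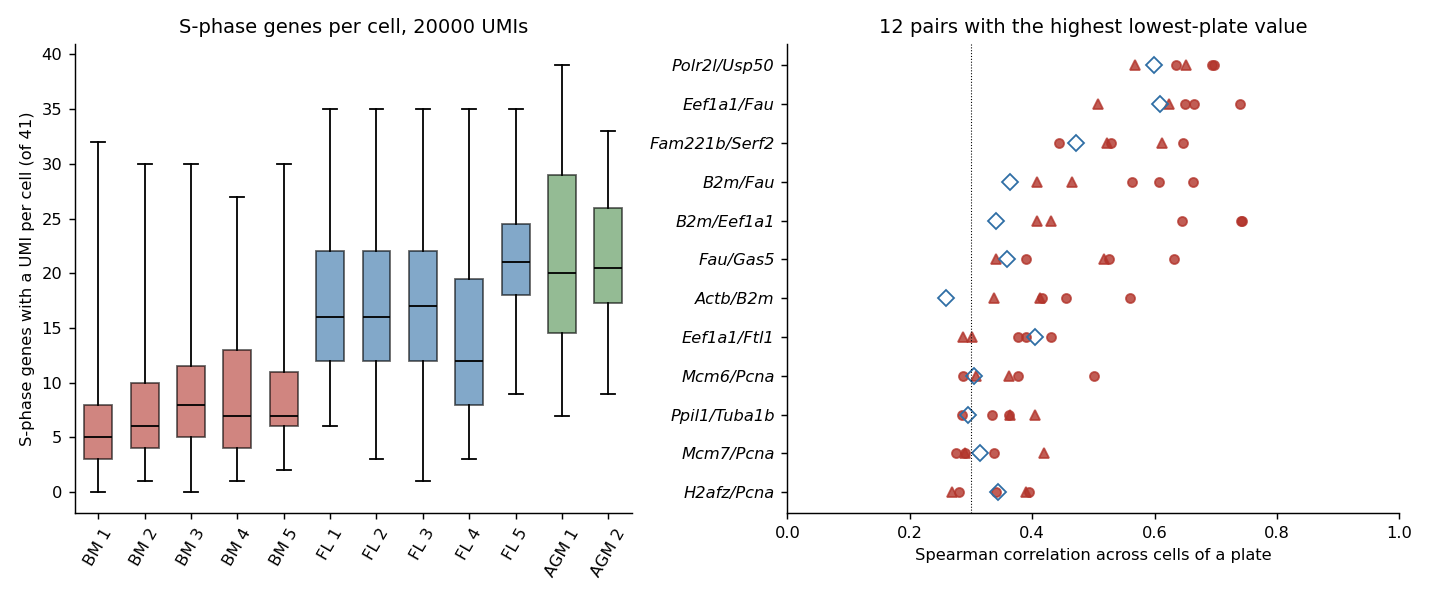
Left, number of 41 S-phase genes with a UMI in each cell thinned to 20000 UMIs, by plate of bone marrow (BM), fetal liver (FL) and AGM (line, median; box, quartiles; whiskers, lowest and highest cell). Right, Spearman correlation of 12 gene pairs on bone marrow plates 1 to 3 (circles) and 4 and 5 (triangles) with the fetal liver median (open diamonds); bone marrow medians of S-phase genes are 5 to 8 and fetal liver medians 12 to 21.

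Few gene pairs varied together on every plate. Among 1259 genes (mitochondrial, Rpl, Rps and numbered Gm genes left out) found in at least 30% of thinned cells of every bone marrow plate, 7 of 791911 pairs (0.000884%) had a Spearman correlation of at least 0.3 on all 5 plates, and 0 had one of -0.3 or below. The median over all pairs was 0.03. Thinned to 10000 UMIs 2 pairs passed, and without bone marrow plate 4 there were 21. Given the number of genes detected in each cell 6 passed, and with unthinned CPM 9. The highest pair was Polr2l and Usp50, with 0.64, 0.70, 0.69, 0.65 and 0.57 on plates 1 to 5. Polr2l encodes an RNA polymerase subunit on chromosome 7 and Usp50 a member of the ubiquitin-specific proteases on chromosome 2. Their transcripts share 382 bases at 99.7% identity, so the same reads could be counted for either. Fam221b and Serf2 (0.44 to 0.65) likewise share 514 bases at 95.5% identity, on opposite strands. These 2 pairs are uncertain as pairs of genes.

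The other 5 pairs joined abundant genes with no shared stretch of sequence found. Eef1a1 and Fau, the fusion of a ubiquitin-like protein with a ribosomal protein, had 0.65, 0.74, 0.66, 0.51 and 0.62. B2m with Eef1a1 had 0.74, 0.74, 0.64, 0.41 and 0.43, and B2m with Fau 0.61, 0.66, 0.56, 0.41 and 0.47. These pairs among Eef1a1, Fau and B2m were all lower on both plates of the second origin than on each plate of the first. So, narrowly, was the pair of Actb and B2m, with 0.56, 0.46 and 0.42 on plates 1 to 3 and 0.34 and 0.41 on plates 4 and 5. Of the 5 pairs only Fau with Gas5 overlapped between the origins. How many of all pairs split in this way was not counted. Fau with Gas5, a host of small nucleolar RNAs, had 0.34 to 0.63, and Actb with B2m 0.34 to 0.56. The lowest plate of Fau with Gas5 fell to 0.24 given the number of genes detected and to 0.28 with unthinned CPM. That of Actb with B2m fell to 0.27 with unthinned CPM. The pairs among Eef1a1, Fau and B2m stayed above 0.3 in both settings. Eef1a1, Fau and Gas5 are known to share a run of pyrimidines at the start of their transcripts. These starts were not examined here, and a link to the correlations was not tested. Fetal liver medians of the 5 pairs were 0.61, 0.34, 0.36, 0.36 and 0.26 in the same order, and since pairs were picked by their bone marrow values the tissues were not compared.

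Cell cycle genes made up most of the pairs that followed. Mcm6 and Pcna had 0.38, 0.29, 0.50, 0.31 and 0.36, Mcm7 and Pcna 0.28 to 0.42, and Pcna with H2afz, a histone variant gene that is high in dividing cells, 0.27 to 0.40. Ppil1 and Tuba1b, a prolyl isomerase and a tubulin gene, had 0.29 to 0.41, and Eef1a1 with the ferritin gene Ftl1 0.29 to 0.43. The most negative pairs were Cdk4 with Malat1 (-0.41 to -0.26) and Fau with H2afz (-0.39 to -0.25), both negative on all 5 plates. Counts in a thinned cell add up to a fixed total, so abundant genes cannot vary independently of each other. Among class II genes, H2-Aa and Cd74 had 0.35, 0.12, 0.37, 0.49 and 0.39, with a median of 0.09 over 21 pairs of class II genes. Pairs of 23 stem cell factors had a median of 0.03 and those of 12 surface genes 0.01, close to the 0.02 over all pairs.

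Cell-to-cell spread was measured as the squared coefficient of variation (SD over mean) of thinned counts on the log2 scale, less its trend on mean level within the plate, so that 0 is the spread usual for a gene of that level. Among 2083 genes found in at least 20% of thinned cells of every plate, the highest medians over plates were those of Gm42418 (1.46), Malat1 (1.27), mt-Nd1 (1.19), mt-Cytb (1.07), Nsrp1 (1.04), Pim1 (0.997), Hmgb2 (0.95), Plac8 (0.93), mt-Nd2 (0.93), Lgals1 (0.88), Cdv3 (0.86) and Rps19bp1 (0.85). Gm42418 is a non-coding gene annotated on chromosome 17 and Malat1 a nuclear RNA. Only 15 genes were among the most variable 10% on every plate, among them Gm42418, Malat1, Nsrp1, Hmgb2 and Plac8. These values chose the genes and are a description.

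Several of these genes are known to respond to signals or to differ between stages. Pim1, a kinase gene induced by cytokine receptors, had spreads of 0.40, 0.84, 1.15, 1.32 and 0.997 on plates 1 to 5. Of the 423 cells 21.3% had none of it and 53.7% had at least 10 UMIs, with a median of 64 UMIs among the latter. Plac8, a gene of immature and activated blood cells, had 0.95, 0.52, 1.14, 0.93 and 0.90. Hmgb2, a chromatin protein gene that is high in dividing cells, had 0.78, 0.95 and 0.65 on plates 1 to 3 and 2.38 and 1.84 on plates 4 and 5. Lgals1, which encodes galectin 1, had 0.84, 0.10, 0.88, 1.03 and 1.22. Among the markers, Ly6a and Cd74 both had a median of 0.73, Myl10 had 0.47 (0.32, 0.43, 0.47, 0.86 and 1.46), Sdsl -0.07 and H2-Q7 -0.15. Both plates of the second origin had a higher spread of Myl10 than any plate of the first. The share of all genes whose spread splits by origin in this way was not counted.

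The genes with the lowest spread each share a stretch of sequence with another gene, as did other genes that were aligned. Gm11808 (-2.56), Gm11361 (-2.46), Rpl36a-ps1 (-2.38), Rpl10-ps3 (-2.20), Rps27rt (-2.06) and Fam221b (-2.05) stood at the bottom, and their highest value on any plate was -1.87 (Rpl10-ps3). Gm11361 aligned to Rps18 over 540 bases at 99.3% identity, Rpl10-ps3 to Rpl10 over 740 bases and Rps27rt to Rps27 over 341 bases, both at 100% identity. Rpl36a-ps1 aligned to Rpl36a over 444 bases at 98.2% identity. Counts of these copies may therefore be reads of the abundant parent genes, and reads of such copies are uncertain. The longest matches of Gm11808 (to Olfr77) and Fam221b (to Serf2) lay on the opposite strand. Such matches are not particular to low spread. Eef1a1 aligned to Gm12912 over 1395 bases at 92.0% identity and Pcna to Pcna-ps2 over 781 bases at 99.2%. The genes with the highest spread were not aligned, so a link between shared sequence and low spread was not tested.

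**Figure D4:**
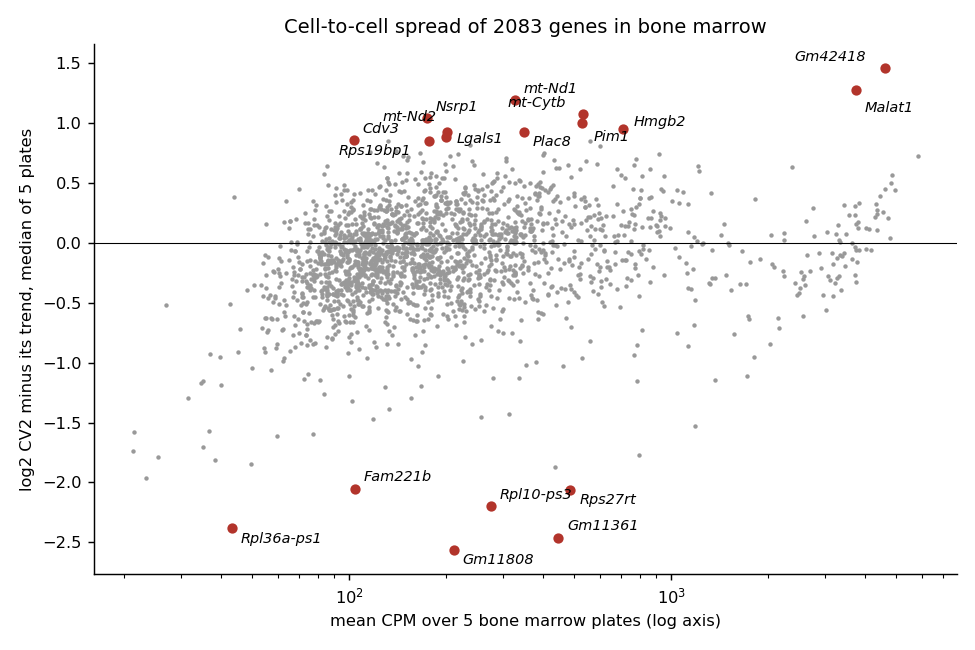
Spread above trend (log2 of the squared coefficient of variation less its trend, median of 5 plates) against mean CPM (log axis) for 2083 genes in bone marrow; red points are the 12 highest and 6 lowest genes. Gm42418 stands at 1.46 and Gm11808 at -2.56.

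Against fetal liver the coefficient of variation was higher in bone marrow, while few genes differed in spread less its trend. The median coefficient of variation over 3485 genes found in both tissues was 211 ± 8.92% (SD, n = 5 plates) in bone marrow and 143 ± 16.8% in fetal liver (exact permutation p = 0.00794, adjusted 0.0132). It is not corrected for mean level, and thinned bone marrow cells also held fewer genes in all (above). How far that enters the coefficient was not tested. Less its trend, 4 of the 3485 genes (0.115%) passed limma's test with the origin as a block, and all 4 had the lower spread in bone marrow. The trend is taken off within each plate, so a shift shared by most genes of a tissue cannot show in this test. Gm26917, a non-coding gene on chromosome 17 beside Gm42418, averaged -0.50 ± 0.41 in bone marrow and 1.53 ± 0.62 in fetal liver (limma difference -2.04 ± 0.27, adjusted p = 0.00228). Hist1h2bc, a histone gene, averaged 0.95 ± 0.34 and 2.19 ± 0.50 (-1.25 ± 0.23, adjusted p = 0.0407). The transcript of Hist1h2bc aligned to that of Hist1h2be over 392 bases at 98.0% identity, so its reads may be split or lost. The other 2 were the gene copies Gm11361 and Rps27rt. The mean levels of Gm26917 and Hist1h2bc differed too, by -1.32 and -1.61 on the log2 scale of thinned counts. At 10000 UMIs a cell limma called 0 genes (299 with an unadjusted p under 0.05), and with the SD of log2 counts as the measure 89 did pass, 49 with a higher and 40 with a lower spread. Without bone marrow plate 1, 2, 3 or 4 or fetal liver plate 1, 2 or 4 the count was 1, without bone marrow plate 5 it was 2, and without fetal liver plate 3 it was 7.

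Ribosomal protein genes made up most of the genes called between the origins within bone marrow. Over 5 plates edgeR's quasi-likelihood test called 86 of 11695 genes (0.735%), 69 higher (0.59%) and 17 lower (0.145%) in the second origin, and 54 of the 86 start Rpl or Rps. Of 84 ribosomal protein genes tested 82 had the higher fitted level there, with a median log2 difference of 0.74 beside -0.03 over all genes. Plates did not overlap for any of the 86, and this held for 25.1% of all genes tested. Origin, plate set, sort and sex cannot be told apart here, since each origin has its own plates. Xist, the RNA of the inactive X chromosome, had 61.1, 20.6 and 35.6 CPM on plates 1 to 3 and 0 on plates 4 and 5, while Ddx3y of the Y chromosome had 0 on plates 1 to 3 and 37.1 and 36.2 CPM on plates 4 and 5. These 2 genes were chosen after their values were seen.

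Myl10 was among the clearest differences. After TMM scaling it had 801, 1001, 892, 273 and 212 CPM (log2 difference -1.89 ± 0.18, adjusted p = 0.00306). Myl10 is a given marker, chosen with values of these data known, so its call is no independent result. Mtmr9, a myotubularin-related gene, had 121, 103, 123, 4.92 and 11.2 CPM (-3.81 ± 0.45, adjusted p = 0.0115). Vldlr, a lipoprotein receptor gene, averaged 77.5 and 14.7 CPM, Ahi1, a gene of the primary cilium, 92.2 and 18.8, and Morn2 88.0 and 18.3. The mitochondrial genes mt-Nd2 and mt-Nd5 averaged 261 and 98.0 CPM and 399.9 and 154 CPM, and Tcof1, a gene of ribosomal RNA synthesis, 153 and 61.0 CPM. Higher in the second origin were Ifitm1, with 1678, 1861, 1668, 3729 and 3245 CPM (1.01 ± 0.12, adjusted p = 0.0128), and Lgals1, with 108, 123, 116, 434 and 273 CPM (1.61 ± 0.23, adjusted p = 0.0315). Rbm3, a cold-inducible RNA-binding protein gene, averaged 87.4 and 278 CPM, Ctse, a cathepsin, 6.11 and 59.4, Serpina3g, a serpin, 230.0 and 448, and Rps29 4429 and 8401. Eif2s3y of the Y chromosome averaged 0.0732 and 64.0 CPM.

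**Figure D5:**
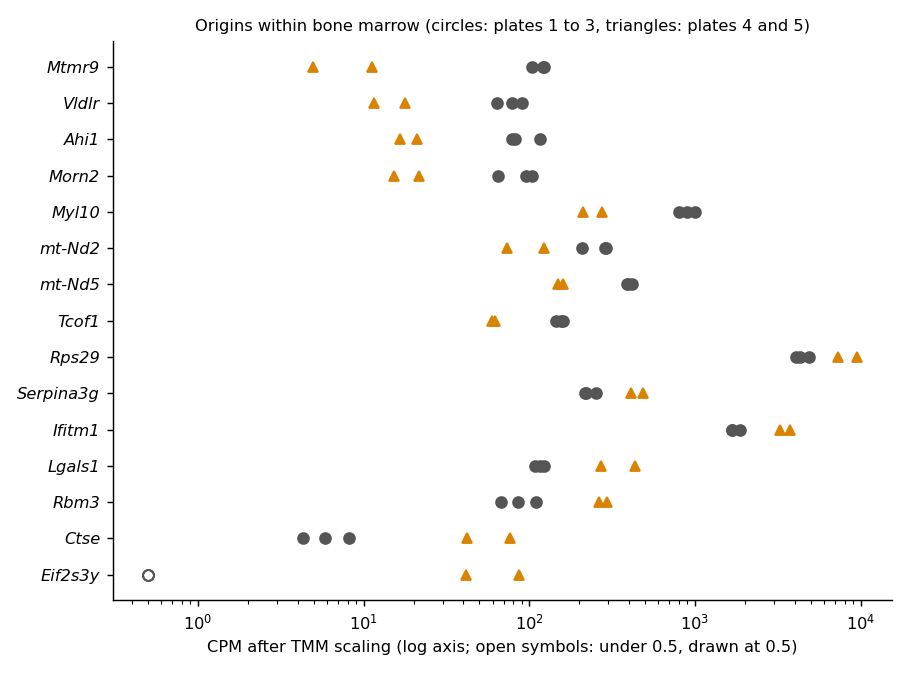
CPM after TMM scaling (log axis) of genes called between the origins of bone marrow, circles for plates 1 to 3 and triangles for plates 4 and 5; values under 0.5 are drawn open at 0.5. For each gene the circles and triangles do not overlap, as for Myl10 (801 to 1001 against 212 and 273 CPM).

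These calls depended on single plates. Without plate 1 or plate 2 edgeR called 0 genes (811 and 863 had an unadjusted p under 0.05), without plate 3 or plate 4 it called 2, and without plate 5 it called 92. Myl10 kept a difference of -2.09 to -1.72 over the 5 leave-outs and passed in 3 of them, with adjusted p up to 0.133, as did Eif2s3y. Mtmr9, Ifitm1, Lgals1, Rbm3, Rps29, mt-Nd5, B2m and Xist passed in 1 of 5. Vldlr, Ahi1, Morn2, mt-Nd2, Tcof1, Serpina3g, Ctse and Ddx3y passed in 0 of 5. With Rpl and Rps genes taken out before scaling, an alternative chosen after the data were seen, 17 genes passed, 11 higher and 6 lower. DESeq2 called 526, 239 higher and 287 lower. Of the lists, MHC class I had 1 of 24 genes called (B2m, higher) and interferon response 2 of 39 (Ifitm1 and Ifitm3, higher). No gene of the S phase, G2 and M phase, stem cell or MHC class II lists was called by edgeR. The 52 genes of G2 and M phase had a median log2 difference of 0.83, above that of the ribosomal protein genes, and the 41 of S phase -0.07.

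In summed counts, genes of antigen presentation were called higher than in both other tissues and endothelial genes lower, and genes of platelets were called higher mainly against fetal liver, a difference between the comparisons that was not tested. Both comparisons share the bone marrow samples, and fewer cells of a type and less RNA per cell cannot be told apart in such sums. Both AGM plates carry 1 code, so AGM is a single summed library here. Calls against it have no AGM replicate and assume that it varies like the other tissues. Of 24 class I genes 9 were higher and 0 lower than in fetal liver, with a median log2 difference of 0.77, and 16 were higher than in AGM, where 8.92% of genes were called, 5.29% higher and 3.63% lower. H2-K1 had 1514 and 2002 CPM in the bone marrow origins, 693 and 511 in those of fetal liver and 107 in AGM (1.55 ± 0.22 against fetal liver, adjusted p = 0.000153). Of 17 class II genes 7 were higher than in fetal liver and 9 than in AGM, with none lower. H2-Ab1 had 123 and 120.3 CPM in the bone marrow origins and 0.801 and 1.77 in fetal liver (6.60 ± 0.44, adjusted p = 3.3e-09). The class I counts include H2-Q7 and the class II counts Cd74. Both are given markers, chosen with values of these data known, so their calls are no independent result. Of 40 interferon response genes 11 were higher than in fetal liver and 0 lower, among them Ly6e (0.77 ± 0.21, adjusted p = 0.0338).

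Of 27 tested megakaryocyte and platelet genes 8 were higher than in fetal liver, among them Itga2b, Pf4, Cd9, Plek, Itgb3, Cavin2 and Fyb, and 1, Vwf, was lower. Vwf, the von Willebrand factor gene, was found in 5.67% of bone marrow cells, and it was lower than in AGM too. Against AGM 3 of the 27 genes were higher and 1 lower, with a median log2 difference of 0.38 beside 1.36 against fetal liver. Of 18 endothelial genes 7 were lower than in fetal liver and 14 than in AGM. Of 31 stem cell surface genes 7 were higher than in fetal liver (Kit, Ly6a, Itga6, Itgb3, Cd9, Cd63 and Alcam) and 1, Procr, lower. Ly6a and Alcam are given markers, chosen with values of these data known, so their calls are no independent result. Of 35 stem cell factors 5 were higher, among them Gata2, Lmo2, Gfi1b and Nfix, and 3 lower (Mycn, Hmga2 and Sox17, the latter pair known from fetal HSC). Lmo2, a partner of blood transcription factors, had 786 and 831 CPM in the bone marrow origins and 439 and 412 in fetal liver (0.93 ± 0.20, adjusted p = 0.00738). Pim1 had 676 and 334 CPM against 109 and 151 (1.96 ± 0.28, adjusted p = 0.000115), and Lgals1 120 and 349 against 1472 and 1436 (-2.64 ± 0.33, adjusted p = 2.4e-05).

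These counts lean on a few plates. Without fetal liver plate 4 the calls against fetal liver fell to 117, with 4 genes of class I higher, 6 of class II, 0 of interferon response, 2 of platelets and 0 of stem cell surface, and 4 endothelial genes lower. Without fetal liver plate 3 the calls were 429, and without bone marrow plate 5 they were 402, with 1 interferon response gene and 4 platelet genes higher. Against the single AGM library 1380 genes were called, 329 without fetal liver plate 4, which enters through the shared estimate of spread, and 864 without bone marrow plate 5.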

How the data were processed

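The authors deposited UMI counts per gene and well for each of 12 plates of single-cell STRT-seq, and per the submitters' processing notes these came from UMI-tools, featureCounts and SAMtools on mm10, without versions. Over all plates there were 22307 gene symbols, of which 98.1% matched the gene name table. Depth was 2596681 to 9896449 UMIs on a bone marrow plate. Intervals (exact Clopper-Pearson, 95%) and limits from a count of 0 (3 counts) cover counting error only.

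For tissues, UMIs of kept cells were summed per origin code (5 libraries, 2 residual degrees of freedom) and tested with edgeR 4.0.16 (TMM, quasi-likelihood, R 4.3.3). The bone marrow origins were tested over 5 plates. Genes were called at an adjusted p (Benjamini-Hochberg) under 0.05. Spread above trend was tested with limma 3.58.1 with the origin as a random block, in cells thinned to 20000 UMIs. Correlations were Spearman's within a plate. Plate summaries were compared by exact two-sided permutation (scipy 1.17.1). The edgeR fits against fetal liver and between origins, the limma fit and the count of gene pairs were tested on simulated data. AGM was 1 summed library.

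The members and gene lists were chosen with earlier results of these data known. Named genes are the 6 markers; the 12 most abundant genes and 3 of each of the ribosomal and mitochondrial families; the 12 highest and 6 lowest in spread; up to 4 members of each list by share of cells, and cell type markers; the 8 largest rises and 8 largest falls between origins with at least 50 CPM; and the 12 highest gene pairs. Some genes that the rule names are not reported here. Other genes named were called in a list or were chosen after their values were seen. Coordinates and alignments use GENCODE vM21 and RefSeq on GRCm38. Same-numbered plates of different tissues had a median correlation of deviations of -0.00867 over 15 pairs and were not treated as pairs. Alternatives covered scaling, filters, thinning depth, DESeq2 1.42.0 and leaving out each plate.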

Additional observations from a re-analysis of the deposited data

Results flagged for a closer look

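In 132 sets of 5 plates examined (named genes on bone marrow plates, and plate summaries of both tissues), 5 had a plate far from the other 4 (gap to the next plate over the range above 0.71), and chance flags about 1 in 20. Rps19bp1 had 287.8 CPM on plate 2, where the next highest plate had 164.4. Itgb1, an integrin chain, had 201.0 CPM on plate 1 with 115.1 next. The other 3 stood out on plate 5. Cks1b had 260.7 CPM there with 168.8 next, Ppil1 135.8 with 108.9 next, and Hist1h2bc 121.5 with 68.67 next.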

How the results depend on the processing

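Counts of called genes were the values most dependent on the settings. Leaving out 1 plate at a time gave 117 to 741 genes against fetal liver, 329 to 1618 against AGM, 0 to 92 between the bone marrow origins, 1 to 7 for spread and 8 to 21 recurrent gene pairs. Between origins the count was 215 without a filter on low counts (115 higher, 100 lower), 526 with DESeq2, 16 by limma on shares of thinned cells with a UMI (11 higher, 5 lower) and 17 with ribosomal protein genes left out of the library size. For spread it was 0 at 10000 UMIs, 1 without the origin block and 89 with the SD of log2 counts, and 2 gene pairs recurred at 10000 UMIs. Genes per bone marrow cell (mean of plate medians) were 1915.3 at 20000 UMIs, 2635.2 without thinning, 1607.8 at 10000 UMIs, and 1711.4 and 1110.0 unthinned with at least 2 and 10 UMIs asked of a gene. The difference in S-phase pair correlation ran from -0.04463 (without fetal liver plate 5) to -0.02086. The cause of these shifts was not tested. Of 2297 gene-level values against fetal liver 2202 stayed on their side of the threshold. The same held for 2198 of 2297 against AGM, 270 of 422 between origins and 24 of 54 for spread. None of these genes that was called in the main fit changed sign. For genes not called, changes of sign were not counted. Depth limits what can be said of genes with a UMI in few cells, such as Fgd5 and Vwf.

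With plates as libraries, an alternative chosen after the data were seen, 997 genes were called against fetal liver and 1216 against AGM without the replicate block. With the replicate block on the plate number in the titles 846 (411 higher, 435 lower) and 982 were called. Plate numbers in the titles do not pair the samples, with a median correlation of -0.00867 for same-numbered plates.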
